A study of Mus musculus with 6 samples.

Results

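The genes described here are 10 angiogenic factors and regulators of the response to low oxygen: Vegfa, Vegfb, Vegfc and Pgf of the VEGF family, the angiopoietins Angpt1 and Angpt2, the hypoxia-inducible factor subunits Hif1a and Epas1, and the vascular peptide genes Adm and Apln. They were chosen by gene symbol, and all 10 were found among the 55011 symbols of the count table and among the 13859 genes that passed the filter on low counts. RNA was measured in whole visceral fat of male C57BL/6 mice that were 30 weeks old, after a low-fat diet for 14 weeks and a high-fat diet for 16 weeks, at zeitgeber time 0 h (lights on). Both groups carried Foxp3.Cre-YFP, in which the regulatory T cell gene Foxp3 drives a Cre recombinase with a yellow fluorescent tag. In 3 libraries, labelled bmal1WT, the gene for the clock factor BMAL1 was wild type, and 3 libraries were labelled bmal1KO. The labels do not describe the bmal1KO allele itself. A Cre driven by Foxp3 acts in Foxp3-expressing cells, while RNA was taken from the whole tissue. The design asks how the fat as a whole differs between these genotypes.

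New vessels grow when VEGF ligands bind receptor tyrosine kinases on endothelial cells, and angiopoietins acting on the receptor Tek (TIE2) then set whether those vessels are held stable or loosened. Oxygen controls much of this: the alpha subunits encoded by Hif1a and Epas1 are hydroxylated and destroyed when oxygen is plentiful, and in hypoxia they pair with ARNT and switch on targets such as Vegfa and Adm. The control of both subunits is largely at the protein level, which RNA does not show. In obese fat, enlarged adipocytes and a lagging vessel bed make this pathway a much studied one. BMAL1 belongs to the same bHLH-PAS family as the HIF subunits and ARNT, and its DNA letters overlap with theirs.

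The promoters are shown because HIF dimers read the letters ACGTG or GCGTG and CLOCK:BMAL1 reads CACGTG, which contains ACGTG. RefSeq windows (GRCm38.p6, the assembly of mm10) were found for 7 of the 10 genes, with 9 start sites: Vegfa, Vegfb, Vegfc, Pgf, Hif1a, Adm and Apln. Over the 250 bases before each start, on both strands, 5 of 9 windows held ACGTG or GCGTG, against 38.6% of 32851 RefSeq windows of that length. For Vegfa the letters were only in the window at chr17:46025164-46025413, inside the gene. The Vegfa window before the annotated start of the gene, at chr17:46032378-46032627, had none in its 250 bases. Bases further upstream were not searched for any gene. The Pgf window with GCGTG, at chr12:85177314-85177563, also lay inside its gene. The letters CACGTG were in 1 of 9, the Hif1a window, against 6.02% of all windows. Below, capitals mark ACGTG or GCGTG on either strand (the latter written CACGT and CACGC), 5′ to 3′ on the gene's strand. Adm is shown as the member with the smallest p-value below, Hif1a as the one with CACGTG, and Vegfb as the most abundant VEGF ligand among the members. The windows lie at chr7:110627407-110627656 (Adm, plus strand), chr12:73907617-73907866 (Hif1a, plus strand, in an intron of a longer Hif1a transcript in GENCODE M21) and chr19:6987652-6987901 (Vegfb, minus strand).
Adm: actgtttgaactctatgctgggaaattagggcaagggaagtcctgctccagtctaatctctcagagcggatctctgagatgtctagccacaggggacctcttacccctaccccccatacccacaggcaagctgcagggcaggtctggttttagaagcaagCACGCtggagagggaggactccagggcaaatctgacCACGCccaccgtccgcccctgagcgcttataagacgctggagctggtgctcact
Hif1a: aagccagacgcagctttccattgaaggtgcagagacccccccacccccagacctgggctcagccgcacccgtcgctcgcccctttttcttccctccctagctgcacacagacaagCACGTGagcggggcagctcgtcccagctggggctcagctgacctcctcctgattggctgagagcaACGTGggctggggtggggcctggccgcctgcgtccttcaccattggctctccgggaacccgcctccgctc
Vegfb: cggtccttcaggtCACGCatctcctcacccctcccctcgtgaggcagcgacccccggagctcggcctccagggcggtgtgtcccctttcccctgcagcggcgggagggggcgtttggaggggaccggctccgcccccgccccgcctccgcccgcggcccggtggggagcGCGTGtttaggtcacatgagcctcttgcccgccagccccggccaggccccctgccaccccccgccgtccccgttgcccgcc

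In the Adm window the matches began 90 and 54 bases before the start, both as GCGTG on the opposite strand. In Hif1a the CACGTG match began 135 bases before the start, and a further ACGTG match began 70 bases before it. In Vegfb the matches began 237 and 81 bases before the start. A match of letters is a description of the sequence, and binding was not measured here.

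Total counts ran from 6514620 to 9529198 per library, and 3 counts, taken as the floor, corresponded to 0.323 to 0.451 CPM. Levels below are in CPM, read counts scaled to a common library size after TMM scaling. Arntl, the gene that encodes BMAL1, had 273, 242 and 373 counts in Bmal1WT and 324, 289 and 314 in Bmal1KO, and Foxp3 had at most 3 counts in any library, so whole-tissue RNA did not check the genotype labels. Adipocyte RNA was abundant: Adipoq, the adiponectin gene, had between 1953 and 5498 CPM in the 6 libraries. Bmal1WT replicate 1 stood apart by 770 CPM summed over 14 epididymis genes, against 0 to 3.23 CPM in the other 5 libraries. Bmal1KO replicate 1 stood apart by counts on 30019 genes, against 19009 to 20145 in the others, although its total count of 6514620 was the lowest. Values without either library are given beside the results that they moved most. Whether each library is its own mouse is not stated in the labels, and if not, the p-values reflect a spread that may be technical.

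None of the 10 genes passed edgeR's quasi-likelihood test for Bmal1KO against Bmal1WT, and neither did any other gene (0% of 13859 genes at adjusted p under 0.05, with 0.265 as the smallest). Unadjusted p-values under 0.05 were found for 1290 genes over the table and for 2 of the 10, Adm and Epas1, both lower in Bmal1KO, where 9.31% of all genes were under that value in either direction and 4.26% with lower means in Bmal1KO. Of the 10 genes, 7 had positive and 3 negative log2 fold changes with a median of 0.05, beside a median of 0.02 over all genes tested. The Bmal1WT and Bmal1KO values overlapped for all 10 genes, while 7.85% of all genes had every Bmal1KO library below every Bmal1WT library and 7.83% every one above. The count of genes past the test over the whole table became 156 without Bmal1KO replicate 1, 6 without Bmal1KO replicate 2, 1 without Bmal1WT replicate 1, and 61 without both replicates numbered 1. It was 186 with no filter and 60 by DESeq2, and 0 of the 10 genes was past the threshold in any of these.

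**Figure D1:**
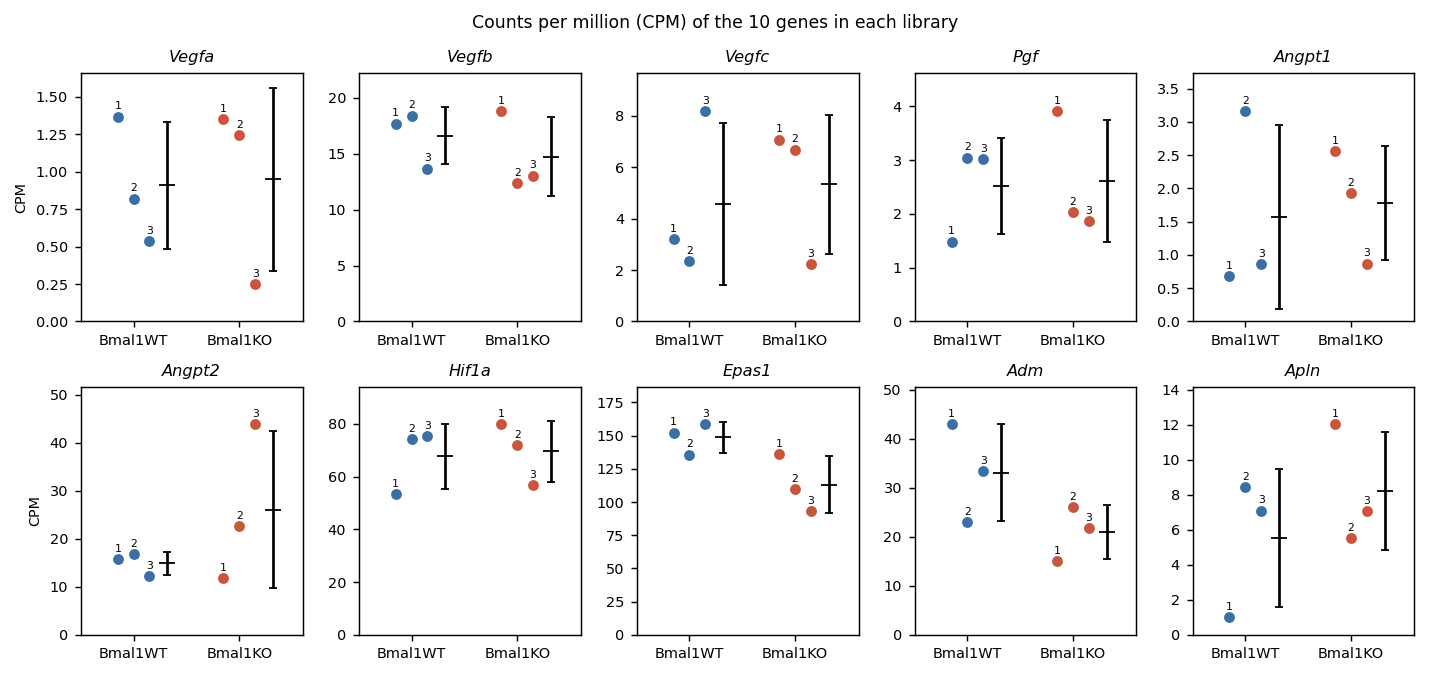
CPM (y axis, from 0) of each of the 10 genes in the 3 Bmal1WT (blue) and 3 Bmal1KO (red) libraries, numbered by replicate, with mean and SD in black. Adm and Epas1 have lower means in Bmal1KO, Angpt2 has 1 high Bmal1KO library at 43.8 CPM, and the groups overlap in every panel.

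The genes differed far more from each other than between genotypes. Divided by exon length, Epas1 was the most abundant at a mean of 23.4 CPM per kb over the 6 libraries, above 83.8% of the genes tested. Adm followed at 16.7, Hif1a at 11.6, Vegfb at 9.75 and Angpt2 at 5.55 CPM per kb. Apln was at 2.18, Vegfc at 2.02, Pgf at 0.881, Angpt1 at 0.322 and Vegfa at 0.217 CPM per kb, the last above only 1.74% of the genes tested. The ranges over 6 libraries overlapped between all 9 pairs of neighbours in this order. Within libraries Epas1 was above Adm and Pgf above Angpt1 in 6 of 6, Apln was above Vegfc in only 3 of 6, and the other neighbours kept their order in 5 of 6. These libraries were primed from the poly(A) tail, and the order also depends on the annotated length.

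**Figure D2:**
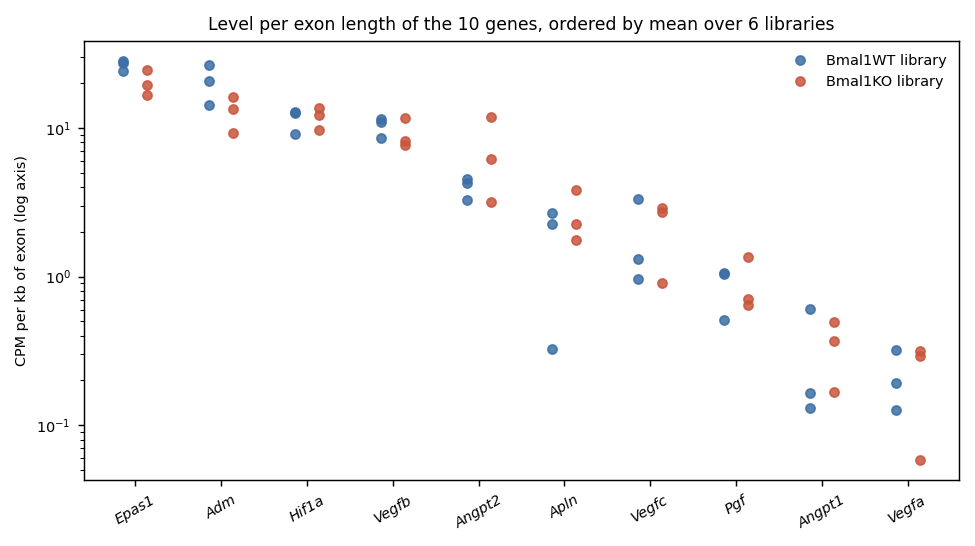
Level per kb of exon (log axis) of the 10 genes in each library, Bmal1WT in blue and Bmal1KO in red, ordered by the mean over 6 libraries. The order runs from Epas1 at a mean of 23.4 CPM per kb to Vegfa at 0.217, and neighbouring genes overlap.

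Among the VEGF ligands, Vegfb (mm10 chromosome 19, 6982473 to 6987651), which binds the receptor Flt1, was the best measured. Its counts in replicates 1 to 3 were 155, 157 and 127 for Bmal1WT and 125, 109 and 105 for Bmal1KO, which was 17.7, 18.4 and 13.7 CPM against 18.8, 12.3 and 13.0 CPM. Bmal1KO replicate 1 held the highest value of all and the groups overlapped. The means of 16.6 ± 2.55 and 14.7 ± 3.54 CPM (SD, n = 3) gave a log2 fold change of -0.17 (SE 0.28, adjusted p = 0.866). It was -0.39 without Bmal1KO replicate 1 and -0.07 without Bmal1KO replicate 2.

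Vegfa (mm10 chromosome 17, 46016993 to 46032369), the main ligand of the receptor Kdr and the classic gene switched on by hypoxia, had few counts. Its counts were 12, 7 and 5 in Bmal1WT and 9, 11 and 2 in Bmal1KO, 46 in all over an exon length of 4.285 kb. The value in Bmal1KO replicate 3 lay under the floor of 3 counts. The means were 0.909 ± 0.422 and 0.949 ± 0.609 CPM (SD, n = 3). The log2 fold change of 0.06 had an SE of 0.89, and so few counts cannot show any but a very large difference. It was 0.48 without Bmal1WT replicate 1 and -0.27 without Bmal1KO replicate 1. GENCODE M21 has no other gene overlapping Vegfa. The gene models used for counting, and how reads with several matches were treated, are not known here, and whether its count is complete was not tested.

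Vegfc (mm10 chromosome 8, 54077606 to 54187096), which acts on Flt4 and drives lymphatic growth, scattered widely within both groups. It had 28, 20 and 76 counts in Bmal1WT and 47, 59 and 18 in Bmal1KO, or 3.19, 2.34 and 8.18 CPM against 7.07, 6.68 and 2.23 CPM. The single high Bmal1WT library and the single low Bmal1KO library made the groups overlap over almost their whole range (log2 fold change 0.22, SE 0.60). Pgf (mm10 chromosome 12, 85166635 to 85177790), the placental growth factor that like Vegfb binds Flt1, was low, with 13, 26 and 28 counts in Bmal1WT and 26, 18 and 15 in Bmal1KO. Its highest value, 3.91 CPM, and its next lowest, 1.86 CPM, were both in Bmal1KO (log2 fold change 0.04, SE 0.61). The sign of Vegfc turned without Bmal1WT replicate 2 (-0.10) or Bmal1KO replicate 1 (-0.04), and that of Pgf without Bmal1WT replicate 1 (-0.22) or Bmal1KO replicate 1 (-0.37).

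Vegfd, another ligand of Flt4 that is on the list of related ligands, was more abundant than any VEGF family member above, at 25.1 CPM per kb in Bmal1WT and 21.1 in Bmal1KO. It had 856 counts in Bmal1WT replicate 1, the library with epididymis RNA, and 369 and 377 in replicates 2 and 3, against 254, 631 and 347 in Bmal1KO. Its log2 fold change was -0.25 (SE 0.35), and it was 0.29 without Bmal1WT replicate 1 and -0.08 without Bmal1KO replicate 1. Angpt4 and Calca, ligands of Tek and of Calcrl, were at means under 3.05 CPM in each group with SEs of 1.02 and 0.83, and their log2 fold changes of -1.08 and 0.87 were -0.67 and 0.46 without Bmal1WT replicate 1. The ligand genes Apela and Adm2 had 0 counts in all 6 libraries.

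The angiopoietins differed from each other by an order of magnitude in counts. Angpt1 (mm10 chromosome 15, 42424723 to 42676977), the agonist of Tek that pericytes release to steady vessels, had 6, 27 and 8 counts in Bmal1WT and 17, 17 and 7 in Bmal1KO. The highest and lowest libraries were both Bmal1WT, and the log2 fold change was 0.18 with SE 0.81. Its sign turned without Bmal1WT replicate 1 (-0.17), Bmal1WT replicate 3 (-0.11) or Bmal1KO replicate 1 (-0.16), and it was 1.20 without Bmal1WT replicate 2. Angpt2 (mm10 chromosome 8, 18690263 to 18741562), the ligand that endothelial cells release and that can block Tek, had 138, 143 and 113 counts in Bmal1WT and 78, 200 and 353 in Bmal1KO.

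Angpt2 had the largest log2 fold change of the 10 genes in size. Its levels were 15.7, 16.8 and 12.2 CPM in Bmal1WT and 11.7, 22.6 and 43.8 CPM in Bmal1KO. The Bmal1WT libraries lay close together, Bmal1KO replicate 1 lay just under them, and replicates 2 and 3 lay above them. The means of 14.9 ± 2.42 and 26.1 ± 16.3 CPM (SD, n = 3) gave a log2 fold change of 0.81 (SE 0.40, unadjusted p = 0.0694, adjusted p = 0.559). Much of that came from 1 library: the value was 0.21 without Bmal1KO replicate 3 and 1.16 without Bmal1KO replicate 1 (adjusted p = 0.0944). Angpt2 lies within Mcph1 on the opposite strand, and these libraries do not mark strand. Mcph1 itself had 91, 135 and 137 counts in Bmal1WT and 172, 46 and 98 in Bmal1KO. Whether reads of 1 gene were counted for the other was not tested.

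The ratio of Angpt2 to Angpt1 counts, which needs no scaling between libraries, was 23.0, 5.30 and 14.1 in Bmal1WT and 4.59, 11.8 and 50.4 in Bmal1KO. Angpt2 was thus above Angpt1 in every library. The mean log2 ratio was 3.58 ± 1.08 in Bmal1WT and 3.80 ± 1.74 in Bmal1KO (SD, n = 3), and the difference of 0.22 did not pass a two-sided exact permutation test (p = 1, where 3 libraries against 3 allow no p under 0.1). The difference was -0.37 without Bmal1WT replicate 2, -0.71 without Bmal1KO replicate 3, 0.69 without Bmal1WT replicate 1 and 1.02 without Bmal1KO replicate 1. The small Angpt1 counts, down to 6, limit this ratio.

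Of the hypoxia-inducible factors, Epas1 (mm10 chromosome 17, 86753700 to 86833410), which encodes HIF-2alpha and is known for its high expression in endothelium, was the most strongly read. It had 1335, 1159 and 1473 counts in Bmal1WT and 907, 968 and 753 in Bmal1KO, or 152, 136 and 158 CPM against 136, 109.6 and 93.4 CPM. Bmal1KO replicate 1 lay level with the lowest Bmal1WT library, and replicates 2 and 3 lay below all Bmal1WT libraries. The means were 149 ± 11.7 and 113 ± 21.7 CPM (SD, n = 3), a log2 fold change of -0.40 (SE 0.18, unadjusted p = 0.0454, adjusted p = 0.523). Its direction was the same in all 14 alternatives, from -0.28 without Bmal1KO replicate 3 to -0.55 without Bmal1KO replicate 1 (adjusted p = 0.112).

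Hif1a (mm10 chromosome 12, 73901375 to 73947530), which encodes the subunit present in most cell types, had nearly equal means in both groups. It had 469, 633 and 701 counts in Bmal1WT and 531, 636 and 458 in Bmal1KO. The levels of 53.5, 74.2 and 75.4 CPM and of 79.8, 72.0 and 56.8 CPM covered the same range. The means of 67.7 ± 12.3 and 69.6 ± 11.7 CPM (SD, n = 3) gave a log2 fold change of 0.04 (SE 0.20, adjusted p = 0.965). It was -0.10 without Bmal1WT replicate 1 and -0.07 without Bmal1KO replicate 1. Whether the fold changes of Epas1 and Hif1a differ from each other was not tested.

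Adm (mm10 chromosome 7, 110627661 to 110629820), which encodes adrenomedullin, a vessel-widening peptide and a known HIF target, had the smallest unadjusted p of the 10 genes. It had 376, 196 and 310 counts in Bmal1WT and 100, 230 and 175 in Bmal1KO. At 42.9, 23.0 and 33.4 CPM against 15.04, 26.0 and 21.7 CPM, 2 Bmal1KO libraries lay below all Bmal1WT libraries and replicate 2 lay above the lowest of them. The means of 33.1 ± 9.97 and 20.9 ± 5.55 CPM (SD, n = 3) gave a log2 fold change of -0.66 (SE 0.29, unadjusted p = 0.0424, adjusted p = 0.515). The extremes were the libraries that stood apart: the log2 fold change was -0.42 without Bmal1WT replicate 1, -0.47 without Bmal1KO replicate 1 and -0.23 without both. Gm28863, an antisense gene that overlaps Adm, had 5 counts in Bmal1KO replicate 1 and 0 in the others.

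Apln (mm10 chromosome X, 48025146 to 48034853), which encodes apelin, a peptide made by adipocytes and by sprouting endothelial tip cells, had 9, 72 and 66 counts in Bmal1WT and 80, 49 and 57 in Bmal1KO. Bmal1WT replicate 1, at 1.03 CPM, was far below the other 5 libraries at 5.55 to 12.03 CPM. The means of 5.52 ± 3.95 and 8.22 ± 3.39 CPM (SD, n = 3) gave a log2 fold change of 0.57 (SE 0.62, adjusted p = 0.798). Without Bmal1WT replicate 1 it was 0.08, without Bmal1KO replicate 1 it was 0.19, and without both replicates numbered 1 it was -0.29.

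**Figure D3:**
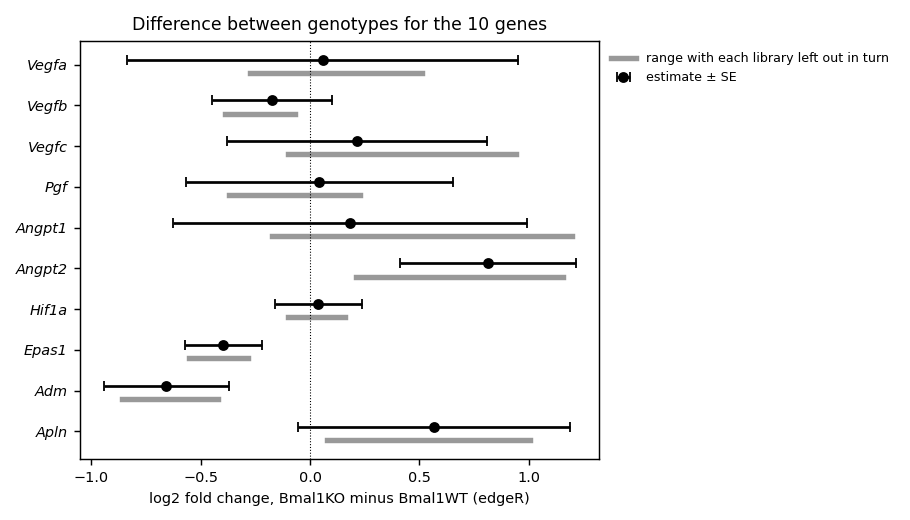
Log2 fold change (x axis, Bmal1KO minus Bmal1WT, edgeR) of the 10 genes with SE, and in grey the range with each library left out in turn. Vegfb, Angpt2, Epas1, Adm and Apln keep their side of 0 throughout that range, and the grey bar of Angpt2 reaches from 0.21 to 1.16.

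The receptors of these ligands split into higher and lower members. Of 12 receptor genes 11 were tested, 5 with positive and 6 with negative log2 fold changes (median -0.18), and 0 passed the test. At an unadjusted p under 0.05, where 9.31% of all genes lay, were 3: Calcrl and Nrp2, with higher means in Bmal1KO, and Aplnr, with a lower one. Calcrl, the receptor that adrenomedullin uses together with Ramp2 or Ramp3, had 61, 60 and 75 counts in Bmal1WT and 105, 119 and 93 in Bmal1KO. All 3 Bmal1KO libraries, at 11.5 to 15.8 CPM, were above all Bmal1WT libraries, at 6.96 to 8.07 CPM (log2 fold change 0.89, SE 0.29, adjusted p = 0.431), and the value ran from 0.73 to 0.98 over the 14 alternatives. Adm and Calcrl, ligand and receptor, thus had mean differences of opposite sign.

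Nrp2, the coreceptor through which VEGF-C acts, was at 44.3, 38.3 and 33.4 CPM in Bmal1WT and 37.9, 71.0 and 76.6 CPM in Bmal1KO. Its replicate 1 lay inside the Bmal1WT range while replicates 2 and 3 lay above all Bmal1WT libraries. The log2 fold change was 0.68 (SE 0.26, adjusted p = 0.475), and leaving out that replicate gave 0.93, which passed (adjusted p = 0.0452), while leaving out both replicates numbered 1 gave 1.05, which did not (adjusted p = 0.0639). Nrp1, the related coreceptor of VEGF-A, was the most abundant receptor at 245 ± 16.9 and 270 ± 20.7 CPM (SD, n = 3), with a log2 fold change of 0.14 (SE 0.15).

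Aplnr, the apelin receptor, was at 35.2, 20.3 and 59.6 CPM in Bmal1WT and 27.4, 11.8 and 12.4 CPM in Bmal1KO. Bmal1KO replicate 1 lay within the Bmal1WT range, and the high Bmal1WT replicate 3 set part of the log2 fold change of -1.17 (SE 0.42, adjusted p = 0.461), which was -0.70 without it. With no filter on low counts it passed (adjusted p = 0.00236). The VEGF receptor Flt1 had a log2 fold change of -0.77 (SE 0.46) and Kdr one of -0.33 (SE 0.35). Both had their highest library in Bmal1WT replicate 3, at 27.2 and 36.5 CPM, and without it they were at -0.28 and 0.06. Without Bmal1KO replicate 1 they were at -1.36 and -0.71, and without Bmal1KO replicate 3 at -0.48 and -0.21.

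Tie1, the orphan partner of Tek, was at 21.1, 19.8 and 33.1 CPM in Bmal1WT and 19.7, 11.7 and 19.2 CPM in Bmal1KO, so that the groups did not overlap but nearly touched (log2 fold change -0.55, SE 0.30). It was -0.28 without Bmal1WT replicate 3 and -0.35 without Bmal1KO replicate 2. Tek itself was at 14.3, 12.2 and 19.0 CPM against 14.7, 17.0 and 4.22 CPM (-0.34, SE 0.44). Its single low value was in Bmal1KO replicate 3, the library with the most Angpt2, and its fold change was 0.06 without it. Flt4 (0.16, SE 0.72), Ramp1 (0.03, SE 0.28) and Ramp2 (-0.18, SE 0.24) differed by less than their SE. Ramp2 was at -0.47 and Ramp1 at 0.28 without Bmal1KO replicate 1, and Flt4 was at 0.62 without Bmal1WT replicate 1. Ramp3 had at most 10 counts in any library and was not tested.

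**Figure D4:**
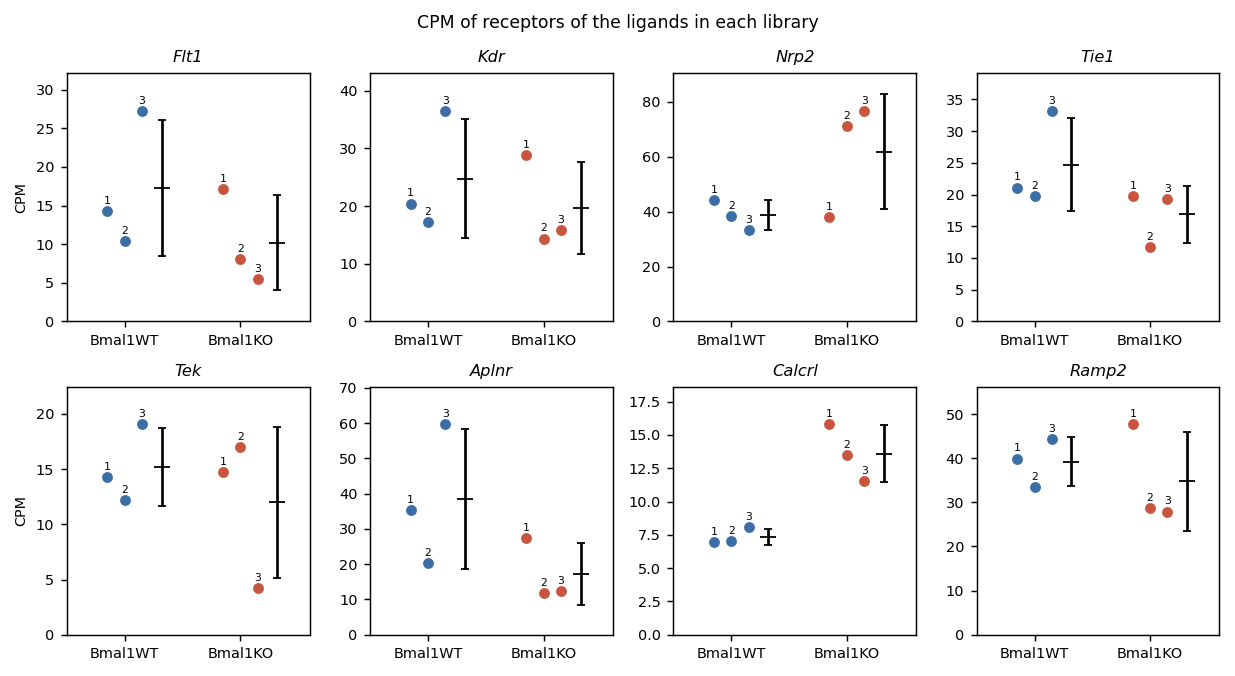
CPM (y axis, from 0) of 8 receptor genes in each library, Bmal1WT in blue and Bmal1KO in red, numbered by replicate, with mean and SD in black. Calcrl separates the groups with all Bmal1KO libraries at 11.5 CPM or more, Nrp2 is high in Bmal1KO replicates 2 and 3, and Aplnr, Flt1 and Kdr are highest in Bmal1WT replicate 3.

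Genes that control HIF proteins showed no common direction. Of 11 genes 9 were tested, 5 with positive and 4 with negative log2 fold changes (median 0.03), with 0 past the test and 0 at an unadjusted p under 0.05. Vhl, which marks hydroxylated HIF for destruction, had means of 87.5 ± 20.8 and 63.4 ± 11.4 CPM (SD, n = 3; log2 fold change -0.47, SE 0.21, and -0.25 without Bmal1WT replicate 1), and the HIF hydroxylase Egln1 at 26.3 ± 3.95 and 18.7 ± 3.90 CPM (-0.49, SE 0.24). Egln3, a hydroxylase that is itself induced by HIF, had 28, 2 and 11 counts in Bmal1WT and 37, 27 and 34 in Bmal1KO (1.47, SE 0.78), and it was at 2.58 without Bmal1WT replicate 1 and 0.97 without Bmal1WT replicate 2. Ep300, a coactivator of HIF, had a log2 fold change of 0.54 (SE 0.29), which was 0.94 without Bmal1WT replicate 3. Arnt, the partner of both HIF subunits and named here after its values were seen, was at 25.2 ± 0.178 and 22.8 ± 4.36 CPM.

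Of 26 HIF target genes all were tested, and 17 had lower and 9 higher means in Bmal1KO, with a median log2 fold change of -0.23 beside 0.02 over all genes. None passed the test, and at an unadjusted p under 0.05 were 2, Ldha in the lower and Kdm3a in the higher direction, a share close to the 9.31% of all genes. The Bmal1KO libraries lay below all Bmal1WT libraries in 7 of the 26 and above them in 1, beside 7.85% and 7.83% of all genes. Ldha, which encodes lactate dehydrogenase A, was at 2637, 1994 and 2061 CPM in Bmal1WT and 1645, 1765 and 1624 CPM in Bmal1KO, a log2 fold change of -0.41 (SE 0.18). Its highest value was in Bmal1WT replicate 1, and the fold change was -0.27 without that library and -0.25 without both replicates numbered 1. The hexokinase Hk2 was at 49.2 ± 2.62 and 36.1 ± 8.90 CPM (SD, n = 3) and the stress gene Ndrg1 at 58.6 ± 1.72 and 44.5 ± 9.07 CPM. Kdm3a, a histone demethylase, was at 9.13, 7.38 and 11.6 CPM against 16.8, 11.9 and 21.1 CPM (0.82, SE 0.32). Several of these targets encode glycolytic enzymes that adipocytes also make at normal oxygen, and whether this has a part in their means was not tested.

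Markers of the cells that make or sense these factors also had different means between the genotypes, with 0 genes of any marker list past the test. All 14 blood endothelial markers had lower means in Bmal1KO (median log2 fold change -0.64, 5 at an unadjusted p under 0.05 beside 4.26% of all genes in that direction), and their summed level was 589 to 1168 CPM in Bmal1WT and 435 to 602 CPM in Bmal1KO, with none at 0 in any library. Of 9 tested mural markers 8 had lower means (median -0.48), at 407 to 428 CPM in sum against 268 to 317 CPM. Acta2 held much of that sum, at 242, 258 and 202 CPM in Bmal1WT and 149, 179 and 176 CPM in Bmal1KO. In 1 tested mural marker, Acta2, every Bmal1KO library lay below every Bmal1WT library. In 1, Higd1b, every one lay above, beside 7.85% and 7.83% of all genes, and in the other tested mural markers the groups overlapped. All 13 adipocyte markers had lower means (median -0.29), with sums of 33135 to 40544 CPM in Bmal1WT and of 40531, 27099 and 21593 CPM in Bmal1KO replicates 1 to 3. Among the Bmal1KO libraries the endothelial, mural and adipocyte sums were highest in replicate 1. So were all members except Adm and Angpt2, and the receptors Flt1, Kdr, Tie1, Aplnr, Calcrl and Ramp2. The other receptors, among them Nrp1, Nrp2 and Tek, were not. The part of these cells in the results was not tested. In whole tissue, fewer cells of a type and less RNA per cell cannot be told apart.

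Macrophage markers had higher means in 9 of 11 (median 0.40), with sums of 8286 to 12573 CPM in Bmal1WT and of 8317, 14953 and 17680 CPM in Bmal1KO replicates 1 to 3. Lyz2 held much of these sums, at 4702, 7323 and 10210 CPM in Bmal1KO replicates 1 to 3. Adgre1, Cd68 and Csf1r had the same order as Lyz2. Mrc1, C1qa, C1qb, C1qc, Fcgr1 and Cd163 were instead highest in replicate 2, and Mertk in replicate 1. Angpt2, Nrp2 and Nrp1 had the order of the sums, lowest in Bmal1KO replicate 1 and highest in replicate 3, which the macrophage markers did not share as a set. How many of all genes share that order was not counted, and a link was not tested. All 9 T cell markers had higher means (median 2.19, 7 at an unadjusted p under 0.05 beside 9.31% of all genes in either direction, sums of 28.1 to 70.5 against 96.1 to 210 CPM), as had all 6 mesothelial markers (median 0.68, 198 to 366 against 413 to 475 CPM) and 6 of 7 stromal progenitor markers (median 0.30). Lymphatic endothelium was poorly covered by its markers: only Lyve1 and Pdpn of 6 were tested. Ccl21a was at 0 in all libraries, but how reads with several matches were counted is not known. Prox1 had 0 counts in Bmal1WT and 4, 0 and 4 in Bmal1KO replicates 1 to 3, Mmrn1 had 0, 0 and 18 against 2, 0 and 28, and Reln had 2, 0 and 2 against 47, 0 and 26. All 3 were at 0 in Bmal1WT replicate 2 and in Bmal1KO replicate 2. Flt4, the lymphatic VEGF receptor, had 54, 22 and 30 counts in Bmal1WT and 35, 6 and 60 in Bmal1KO. It was lowest in Bmal1KO replicate 2, but Bmal1WT replicate 1, with 54, had only 0, 0 and 2 counts of these markers. Lyve1 and Pdpn are also made by other cells. The part of these cells too was not tested.

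**Figure D5:**
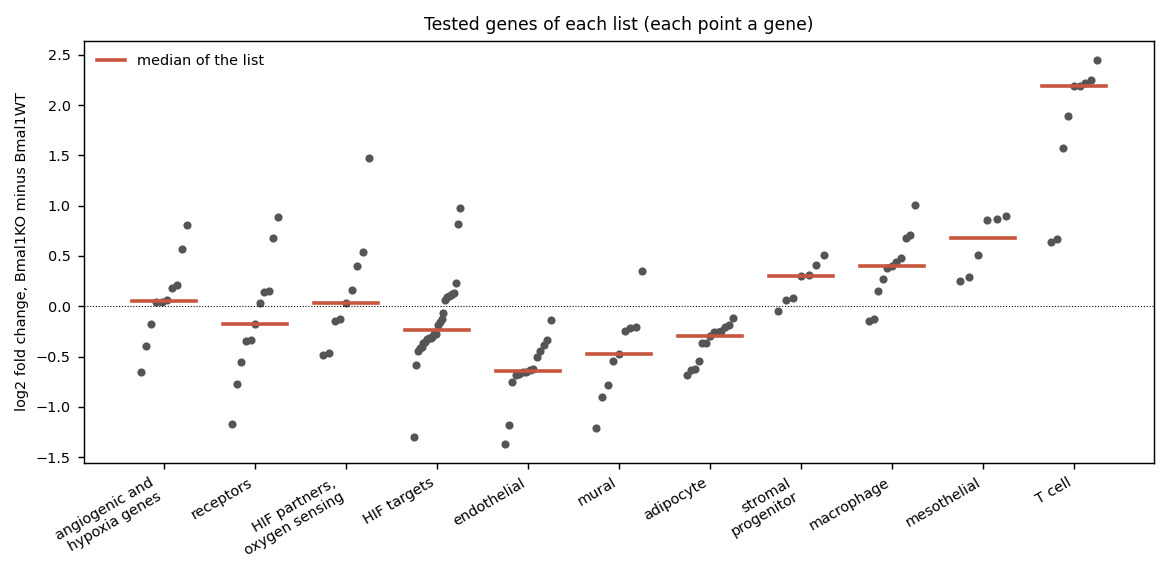
Log2 fold change (y axis, Bmal1KO minus Bmal1WT) of every tested gene of each list (points, sorted within a list) with the list's median in red. The 10 angiogenic and hypoxia genes centre on 0.05, the endothelial, mural and adipocyte markers lie mostly below 0, and the T cell markers lie above it with a median of 2.19.

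For Epas1 and Adm, the genes with the most similar profile were found by the mean absolute difference in log2 CPM centred over the 6 libraries, among 8680 genes with a mean of at least 10 CPM. For Epas1 they were Pex19, Sbsn and Tdrd7, at 0.0322 to 0.0447 beside a median of 0.303 over all those genes. For Adm they were S100a8, Taf6 and F7, at 0.130 to 0.134 beside a median of 0.438. None of the other members was among these.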

How the data were processed

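RNA of 6 libraries was extracted with a lipid tissue kit, reverse transcribed from oligo(dT), amplified, cut with the Nextera XT transposase and sequenced as paired reads, per the labels' protocols. This does not mark strand and carries no molecular identifiers, so the floor of 3 counts covers counting error only. The authors deposited raw read counts for each gene symbol. STAR 2.7.3a, featureCounts and mm10 are named in the submitters' processing notes, while no source used here names their annotation or how multimapping reads were counted.

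Counts were fitted over the whole table with edgeR 4.0.16 (R 4.3.3): filterByExpr, TMM scaling, robust quasi-likelihood F-test without covariates, Benjamini-Hochberg adjustment, threshold 0.05. The fit was tested on simulated data. The SE is the absolute unshrunken log2 fold change divided by the square root of F. CPM were divided by the union of exons in GENCODE M21 (mm10) for levels per kb. Log2 CPM used a prior count of 2. Promoters came from RefSeq (GRCm38.p6), and 1 list symbol, Ero1a, was matched by its RefSeq synonym Ero1l.

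The text names all 10 genes, the receptors, up to 4 genes of smallest p in each other list and the 3 nearest profiles of the 3 members of smallest p, of which that of Angpt2 is not reported here. Arntl, Foxp3, Adipoq, Arnt, Ccl21a, Prox1, Mmrn1, Reln, Higd1b, further macrophage markers and genes at 0 were named outside this rule, after their values were seen. The members and lists were chosen with earlier results of these data known. Alternatives were DESeq2 size factors, library size, DESeq2 1.42.0, limma 3.58.1 voom with quality weights, other filters, a replicate block and libraries left out. Those for genes outside the 10 were added after seeing the data.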

Additional observations from a re-analysis of the deposited data

How the results depend on the processing

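The count of genes past the test, 0 in the reported fit (1290 at an unadjusted p under 0.05), was 60 with DESeq2 (36 higher, 24 lower), 186 with no filter (108 higher, 78 lower, with the median log2 fold change of all genes at 0.46), 61 without both replicates numbered 1, and 0 to 156 with each library left out. It was 0 under the other 5 alternatives, limma voom (1683 at an unadjusted p under 0.05) among them. None of the 10 genes passed in any fit that tested it (Vegfa was not tested in 1 of the 14). Vegfb, Angpt2, Epas1 and Adm kept their direction in all 14 alternatives. With the replicate number as a block the count was 0 and the log2 fold change of Angpt2 was 0.63. Deviations of same-numbered libraries had correlations of -0.07, 0.09 and -0.03, within the -0.085 to 0.11 of differently numbered ones. Deviations centred within groups of 3 constrain each other, and the labels do not say what the numbers mean. These values therefore cannot settle whether the libraries are paired.

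Direction turned for Vegfa with limma voom (-0.18) and the block (-0.077), for Pgf with limma voom (-0.10), for Flt4 with limma voom (-0.53) and the block (-0.19), and for Ramp1 with the block (-0.034). Without both replicates numbered 1 it turned for Vegfc (-0.24), Pgf (-0.63), Angpt1 (-0.52), Hif1a (-0.21), Apln (-0.29) and Vegfd (0.46). With 1 library left out the log2 fold changes ran from -0.27 to 0.51 for Vegfa, -0.10 to 0.94 for Vegfc, -0.37 to 0.23 for Pgf, -0.17 to 1.20 for Angpt1, -0.10 to 0.16 for Hif1a, -0.71 to 0.063 for Kdr, -0.46 to 0.67 for Flt4, -0.70 to 0.060 for Tek, -0.26 to 0.28 for Ramp1 and -0.58 to 0.29 for Vegfd. The difference in the log2 ratio of Angpt2 to Angpt1 ran from -0.71 to 1.02. The cause of these turns was not tested. Scaling by library size alone moved the median of all genes from 0.02 to 0.11. Depth limits Vegfa, Pgf and Angpt1, with at most 28 counts per library.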
